A study of Mus musculus with 12 samples.

Results

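The 10 genes Flt3, Itgax, Cd209a, Clec9a, Xcr1, Siglech, Batf3, Irf8, Zbtb46 and Tcf4 were taken by name from a table of 37583 genes as markers of dendritic cells and of their precursors. They were read in 12 libraries of blood from wild type mice with a burn and a tendon cut (burn/tenotomy), enriched on a microfluidic device, the iChip. The 4 libraries at 6 h, 4 at day 1 and 4 at day 7 are called 6h, Day1 and Day7, and every group shares genotype, injury and enrichment. The labels call the material circulating mesenchymal progenitor cells (cMPCs) with blood cells. Nothing in them ties a replicate to its own animal, and each p-value here reflects variation among libraries that could be technical. Uninjured blood was not analysed here. The groups differed in reads of Y-linked genes, a mark of animal sex, as given with Siglech.

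Dendritic cells take up antigen and present it to T cells. Conventional dendritic cells arise from Flt3-dependent precursors and use the transcription factor Zbtb46. Their cross-presenting type, often called cDC1, needs Irf8 and Batf3, and displays Clec9a and Xcr1 at its surface. Plasmacytoid dendritic cells, which release type I interferon on meeting viral nucleic acid, are specified by the E protein Tcf4 and carry the lectin Siglech in the mouse.

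The values are reads divided by an effective library size, and 1 read was worth 0.0314 (Day1 replicate 2) to 0.617 (Day7 replicate 3). Libraries held 5098395 to 12379041 reads, of which haemoglobin genes took 16.1% to 70.3%. The 10 genes together received 16 to 2075 reads per 6h library, 1536 to 4977 per Day1 library and 6 to 835 per Day7 library. The poorest were Day7 replicate 3 with 6 reads and 6h replicate 2 with 16, and in each of these 7 of the 10 genes had 0 reads. In Day7 replicate 3 a count of 0 still allows a value of up to 1.85 (3 reads, counting error only). The blood and stromal labels fitted their markers in part. The platelet gene Pf4 and the matrix gene Dcn had reads in 12 of 12 libraries. The mesenchymal receptor Pdgfra had reads in 5, and the endothelial genes Cdh5 and Tek in 3 each. These low counts do not stand for all such markers. Of 10 mesenchymal and endothelial markers, from 4 (6h replicate 2) to 10 (Day1 replicate 2 and Day7 replicate 4) had reads in a library.

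Siglech fell at Day7 against Day1, and no other member passed the test in any comparison of 2 times. It averaged 2.30 ± 4.24 in Day7 libraries and 70.95 ± 77.9 in Day1 libraries (SD, n = 4 each). Tcf4 came close to the threshold with the same direction. Xcr1 was the sole tested member with a positive difference between these times. Most members had positive differences for Day1 against 6h, and 0 of these passed in limma, as counted further on.

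**Figure D1:**
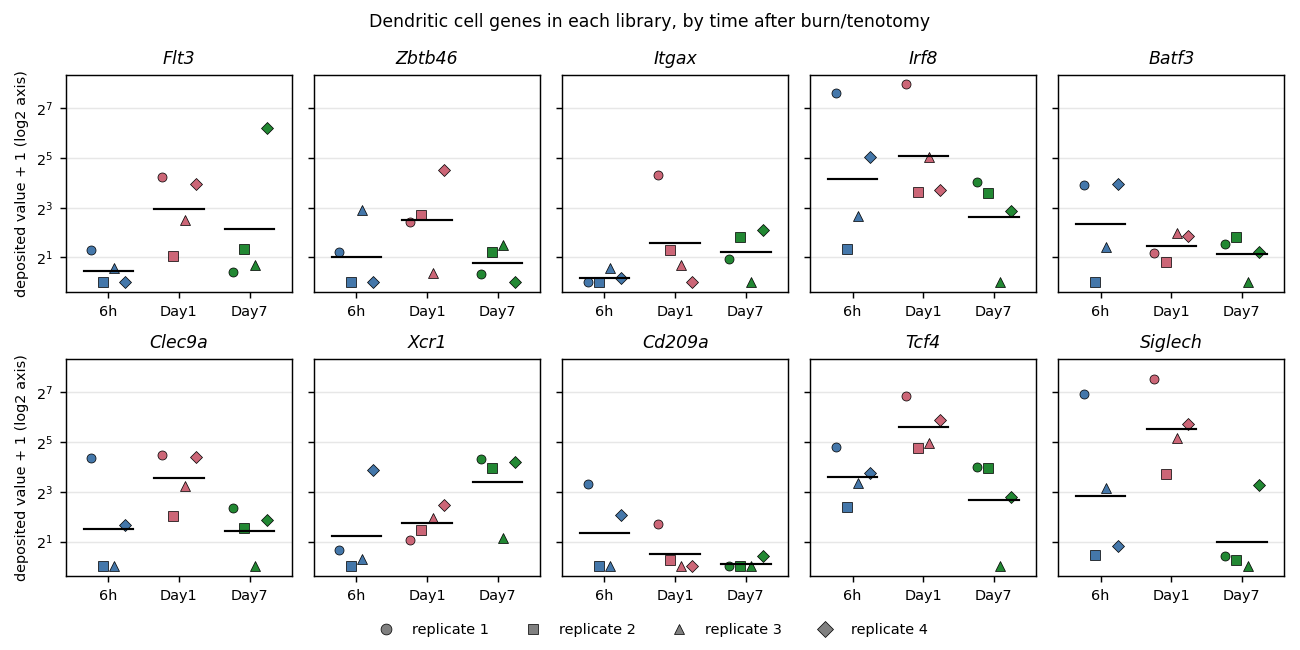
Deposited value + 1 (log2 axis) of each gene at 6h, Day1 and Day7. Each symbol is 1 library, shaped by replicate number, and the bar is the group mean on the log scale. The 4 Day1 libraries of Siglech (11.96 to 185) and of Tcf4 (26.1 to 115) sit above all 4 Day7 libraries (up to 8.65 and 15.1).

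Siglech encodes a sialic acid-binding lectin that signals through an adaptor in plasmacytoid cells. At 6h its values were 122, 0.379, 7.97 and 0.779 in replicates 1 to 4. At Day1 they were 185, 11.96, 34.9 and 51.7. At Day7 they were 0.344, 0.191, 0 and 8.65. All Day1 libraries were thus above all Day7 libraries, and the 6h group spread across both, with replicate 1 near the highest Day1 value. The Day7 counts behind these values were 5, 1, 0 and 26 reads, against 1499, 381, 460 and 1328 reads at Day1. Over pooled reads the Day7 level was 0.0282 of the Day1 level.

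For Siglech the log2 fold change at Day7 against Day1 was -4.54 (SE 1.17, limma adjusted p = 0.0328). Among all 11211 tested genes 5.78% were called in that comparison, 2.19% higher and 3.59% lower, so the count of 1 in 9 tested members is read against that background. Without the 2 libraries with the fewest genes, 6h replicate 1 and Day7 replicate 3, it was -4.21 (limma adjusted p = 0.0348). The call was lost in edgeR (adjusted p = 0.109). It was also lost in limma when a single library was left out, namely Day1 replicate 1, 2, 3 or 4, or Day7 replicate 2 or 3 (adjusted p = 0.0603 to 0.0845). Day1 replicates 2, 3 and 4 held reads of Y-linked genes and the Day7 group held none. Once the fit took account of such reads, the difference was -6.13 and did not pass (limma adjusted p = 0.127). Y-linked reads mark animal sex, so sex and time were mixed between these groups and cannot be told apart. Day1 replicate 1, the library with the highest Siglech, had 0 Y-linked reads, as did all 4 Day7 libraries. A comparison among libraries without such reads would thus rest on 1 Day1 library. In bulk libraries, fewer plasmacytoid cells and less Siglech RNA per cell cannot be told apart.

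Scaling moved the median of all genes between these times. That median was -0.48 as deposited and -1.81 when values were scaled to all reads, where 10 genes were called higher and 3947 lower, against 245 and 403 as deposited. Scaled to reads outside haemoglobin it was -1.62, with 26 higher and 3764 lower. Relative to the median of all genes, Siglech was at -4.06 as deposited, -4.18 per all reads and -4.05 per reads outside haemoglobin. Tcf4 was at -2.45, -2.59 and -2.59 on these scales. A change of scale shifts each gene and the median by nearly the same amount. The likeness of these values across scales was thus largely fixed in advance and adds no support.

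**Figure D2:**
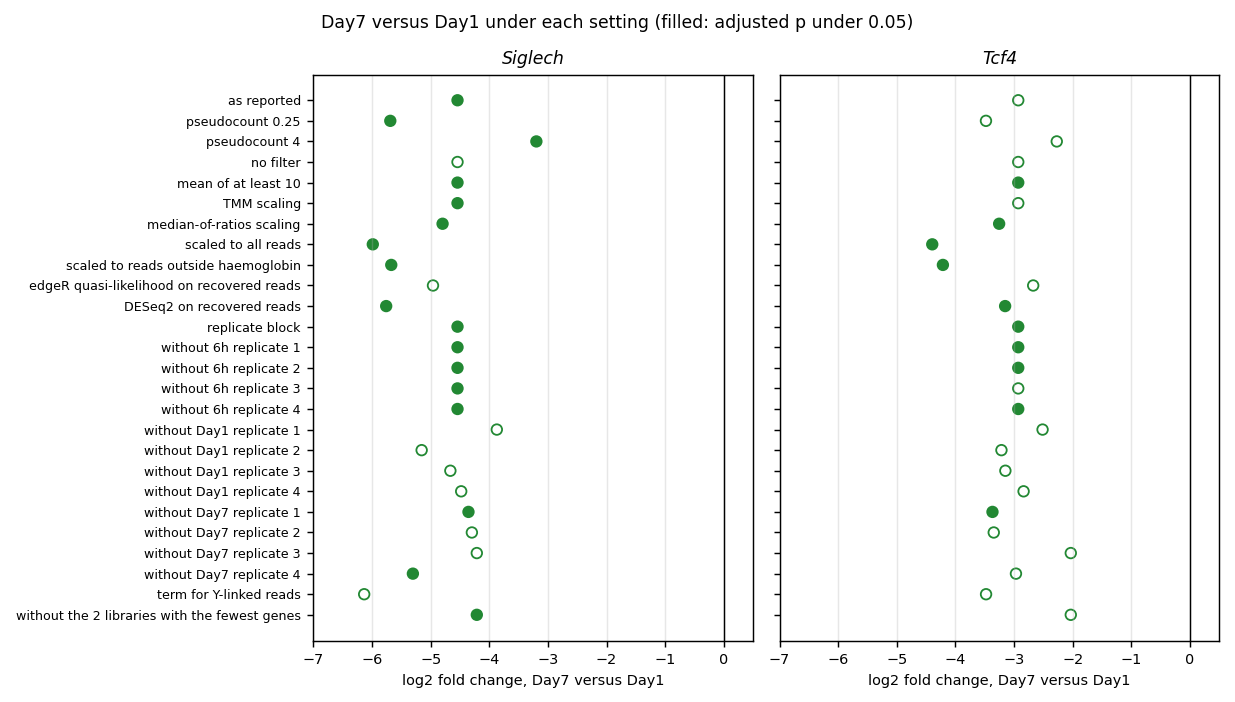
Log2 fold change of Siglech and Tcf4 at Day7 against Day1 (x axis) under each setting (y axis), filled where the adjusted p was under 0.05. Every point lies below 0, from -6.13 to -3.20 for Siglech and from -4.40 to -2.03 for Tcf4, whereas the calls come and go with the setting.

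Tcf4 encodes an E protein that binds E-box DNA and is also active in B cells, stroma and other tissues. At 6h it stood at 27.3, 4.17, 9.17 and 12.6. At Day1 it stood at 115, 26.1, 30.1 and 58.3. At Day7 it stood at 15.1, 14.4, 0 and 5.99. The Day7 and Day1 libraries did not overlap, as for Siglech. In all, 2 of 9 tested members were lower at Day7 with no overlap, against 14.5% of all tested genes, and 0 were higher with no overlap, against 8.47%. For Tcf4 the log2 difference was -2.93 (SE 0.91) and the call was missed (limma adjusted p = 0.0529). It passed in DESeq2 (adjusted p = 0.018), where 1776 of 11211 genes were called, and not in edgeR (adjusted p = 0.152), where 2 were. In limma it passed with median-of-ratios scaling (adjusted p = 0.0361) and without 6h replicate 1, 2 or 4 or Day7 replicate 1 (adjusted p = 0.0352 to 0.0468).

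Markers of other cells that use Tcf4 were read in the same groups. The summed value of 10 mesenchymal and endothelial markers was 74.6 to 728 at Day7 and 346 to 1935 at Day1. In limma 2 of its 7 tested members, Col1a1 and Col1a2, fell, beside 3.59% of all tested genes called lower. Of these 7, edgeR called 0 and DESeq2 called 3 (Col1a1, Col1a2 and Col3a1). The 12 B cell markers summed to 6.79 to 339 at Day7 and 59.5 to 206 at Day1, with 0 of 11 tested members changed in limma (1 at an unadjusted p under 0.05) and 0 in edgeR and in DESeq2. Day1 replicate 1, where Tcf4 was highest, had the lowest mesenchymal and endothelial sum (346) and the highest B cell sum (206) of the Day1 group. The part of these cells in the Tcf4 values was not tested.

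The Siglech promoter is shown because that gene passed the test, with the E-box CACCTG in capitals, the form of E-box bound by E proteins such as Tcf4. The window runs from 250 bases before to 50 bases after the annotated start (RefSeq, GRCm38.p6, chr7:55767934-55768233, plus strand).
Siglech: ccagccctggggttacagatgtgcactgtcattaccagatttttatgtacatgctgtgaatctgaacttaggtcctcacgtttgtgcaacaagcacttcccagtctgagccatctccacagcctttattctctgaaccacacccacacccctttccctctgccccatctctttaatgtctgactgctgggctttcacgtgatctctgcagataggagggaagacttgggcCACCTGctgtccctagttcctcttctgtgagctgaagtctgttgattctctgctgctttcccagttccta
The match begins 20 bases before the annotated start. Of 10 windows listed for 9 members, 3 held CACCTG on either strand (Siglech, Zbtb46 and the second window of Irf8), and 20.2% of all 32851 windows did. The Zbtb46 window lies inside that gene. Such a match describes letters, not binding. The window of Tcf4 is not shown here.

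Irf8, a transcription factor needed for cross-presenting and plasmacytoid cells and used by monocytes and B cells, had the most reads of the 10 genes. At 6h its values were 193, 1.51, 5.31 and 31.8. At Day1 they were 248, 11.4, 31.8 and 12.2. At Day7 they were 15.6, 11.1, 0 and 6.32. Replicate 1 was the highest library in each group, and the Day7 and Day1 groups overlapped. The log2 differences were -2.46 (SE 1.18) for Day7 against Day1 and 0.93 (SE 1.18) for Day1 against 6h (limma adjusted p = 0.169 and 0.804). For Day1 against 6h the difference rested on single libraries, being -0.011 without 6h replicate 2 and -0.027 without Day1 replicate 1.

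Batf3 is the AP-1 family partner of Irf8 in cross-presenting cells. It was at 14.2, 0, 1.69 and 14.5 at 6h. It was at 1.24, 0.754, 2.96 and 2.69 at Day1, and at 1.93, 2.49, 0 and 1.33 at Day7. The 6h replicates 1 and 4 thus lay above every later library, whereas the Day1 and Day7 ranges overlapped. The differences for Day1 against 6h (-0.87, SE 0.87) and Day7 against 6h (-1.18, SE 0.87) did not pass (limma adjusted p = 0.737 and 0.488).

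Clec9a, a receptor for filaments exposed on dead cells, and Xcr1, the receptor of the chemokine Xcl1, mark the same cross-presenting cells. Clec9a was at 19.2, 0, 0 and 2.16 at 6h. At Day1 it was at 21.3, 3.11, 8.42 and 20.01. At Day7 it was at 4.06, 1.91, 0 and 2.66. The Day7 libraries thus lay low, although replicate 1 overlapped the Day1 range. Clec9a averaged 2.16 ± 1.69 at Day7 and 13.2 ± 8.87 at Day1 (SD, n = 4 each), a log2 difference of -2.10 (SE 0.98) that did not pass (limma adjusted p = 0.155).

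Xcr1 was at 0.56, 0, 0.241 and 13.8 at 6h. At Day1 it was at 1.11, 1.73, 2.81 and 4.48. At Day7 it was at 18.9, 14.7, 1.23 and 17.3. The high libraries were thus Day7 replicates 1, 2 and 4 and 6h replicate 4. The log2 difference was 1.68 (SE 0.96) for Day7 against Day1 and 2.20 (SE 0.96) for Day7 against 6h (limma adjusted p = 0.241 and 0.226). Without 6h replicate 4 the Day7 against 6h difference was 3.09 and passed (limma adjusted p = 0.0416). In that fit 693 of 11211 tested genes were called, 597 of them higher, against 99 with all libraries. The library left out was the 6h library with the highest Xcr1. Its removal raises the difference by construction, so that pass adds no support.

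Platelet transcripts were high in these 4 libraries and in Day7 replicate 3. The summed value of 9 platelet markers was 25517 to 43864 at Day7 and 27898 in 6h replicate 4, against 201 to 2363 in the other 6h libraries and 985 to 6531 at Day1. Day7 replicate 3 had a platelet sum of 32570 with Xcr1 at 1.23, which stands for 2 reads. Whether platelet-rich material bears on Xcr1 was not tested. The Xcr1 window (RefSeq, GRCm38.p6, chr9:123861980-123862279, minus strand) is given beside that of Siglech as the tested member with the opposite sign, and it held none of the 4 motifs searched, CACCTG and 3 given with Itgax and Cd209a.
Xcr1: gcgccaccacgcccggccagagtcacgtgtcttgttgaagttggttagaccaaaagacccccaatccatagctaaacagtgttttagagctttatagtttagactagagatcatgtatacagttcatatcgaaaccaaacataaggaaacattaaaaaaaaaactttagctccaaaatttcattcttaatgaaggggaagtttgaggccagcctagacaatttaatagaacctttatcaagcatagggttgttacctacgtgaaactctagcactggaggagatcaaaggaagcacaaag

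**Figure D3:**
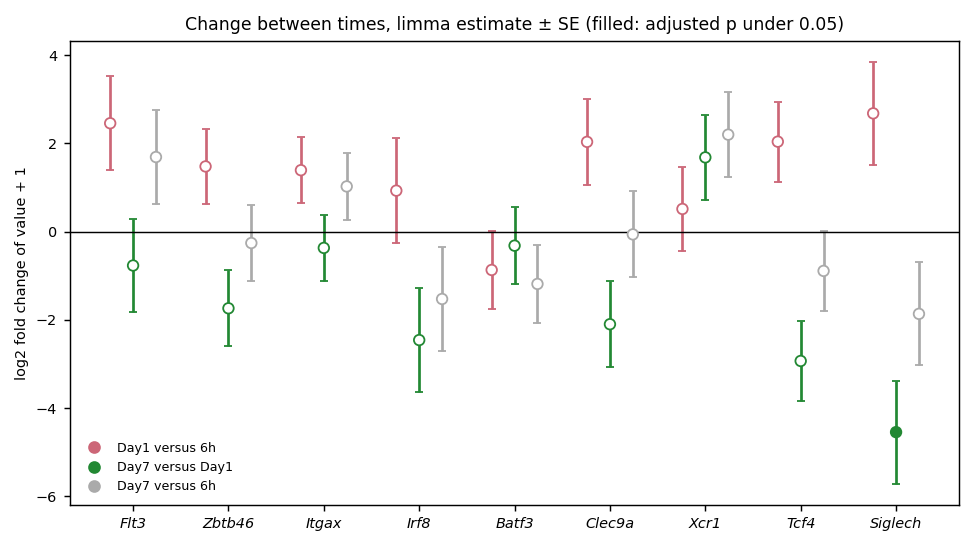
Log2 fold change of value + 1 (y axis) with its SE from limma for the 9 tested members (x axis) in 3 comparisons, filled where the adjusted p was under 0.05. Siglech at Day7 against Day1 (-4.54) is the sole filled point, and Xcr1 (1.68) is the sole member above 0 in that comparison.

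Flt3, the receptor tyrosine kinase for the growth factor of dendritic precursors, was low at 6h, at 1.49, 0, 0.483 and 0. At Day1 it was at 17.7, 1.07, 4.63 and 14.5. At Day7 it was at 0.344, 1.53, 0.617 and 72.2. The Day7 mean of 18.7 ± 35.7 (SD, n = 4) thus came from replicate 4, where 217 of the group's 231 reads lay. Flt3 also marks blood-forming progenitors. In that library 4 of 9 progenitor markers had reads, led by Gata2 (132) and Cd34 (40.9), and Kit, Mpo, Elane, Prtn3 and Myb had 0. The markers summed to 178 there, the highest of the Day7 group, against 25.9 to 154 in its other libraries. The highest sum of any library was 186 in 6h replicate 4, where Flt3 had 0 reads. In Day1 replicate 4, with Flt3 at 14.5, the sum was 166. The part of progenitors in Flt3 was not tested. The log2 differences were 2.46 (SE 1.06) for Day1 against 6h and -0.77 (SE 1.06) for Day7 against Day1 (limma adjusted p = 0.409 and 0.652). The sign of the Day7 against Day1 difference turned in edgeR (0.98) and DESeq2 (0.20).

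Zbtb46, a zinc finger factor of conventional dendritic cells and of endothelium, was at 1.31, 0, 6.52 and 0 at 6h. At Day1 it was at 4.33, 5.62, 0.303 and 21.8. At Day7 it was at 0.275, 1.34, 1.85 and 0. Day7 replicates 1 and 4 lay below the lowest Day1 library and the other two within the Day1 range, so the groups overlapped. The difference was -1.74 (SE 0.86, limma adjusted p = 0.18).

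Itgax encodes CD11c, an integrin chain shared by dendritic cells with some monocytes and natural killer cells. It was at 0, 0, 0.483 and 0.12 at 6h, which were 4 reads in all. At Day1 it was at 18.9, 1.48, 0.607 and 0. At Day7 it was at 0.894, 2.49, 0 and 3.33. Day1 replicate 1 thus stood alone. The differences were 1.39 (SE 0.75) for Day1 against 6h and -0.37 (SE 0.75) for Day7 against Day1 (limma adjusted p = 0.49 and 0.769).

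Cd209a, a mouse relative of the lectin DC-SIGN, failed the filter on low values, with a value of at least 1 in 3 libraries. Those were 6h replicates 1 and 4 (8.96 and 3.24) and Day1 replicate 1 (2.22). Day1 replicate 2 had 0.188, Day7 replicate 4 had 0.333 and the other 7 libraries had 0. It had 102 reads in the 6h group, 24 in the Day1 group and 1 in the Day7 group. Cd209a belongs to a cluster of related lectin genes, so some of its reads may have been left out or counted for a relative. Fitted without the filter, its difference for Day7 against 6h was -1.25 (SE 0.69, limma adjusted p = 0.556).

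The windows of Itgax and Cd209a carried the other matches of interest. Itgax (RefSeq, GRCm38.p6, chr7:128129300-128129599, plus strand) held TGANTCA, the AP-1 site that Batf proteins can bind with Jun partners. Cd209a (chr8:3748935-3749234, minus strand) held the composite of ETS and Irf factors, read as GGAA, 2 bases of any kind and GAAA, on the reverse strand. The matches are in capitals.
Itgax: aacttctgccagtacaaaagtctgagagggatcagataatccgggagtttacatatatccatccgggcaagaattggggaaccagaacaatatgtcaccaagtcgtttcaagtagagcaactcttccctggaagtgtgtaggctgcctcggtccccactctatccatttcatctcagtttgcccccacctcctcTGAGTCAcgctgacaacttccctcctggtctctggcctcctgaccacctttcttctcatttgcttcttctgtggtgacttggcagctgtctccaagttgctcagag
Cd209a: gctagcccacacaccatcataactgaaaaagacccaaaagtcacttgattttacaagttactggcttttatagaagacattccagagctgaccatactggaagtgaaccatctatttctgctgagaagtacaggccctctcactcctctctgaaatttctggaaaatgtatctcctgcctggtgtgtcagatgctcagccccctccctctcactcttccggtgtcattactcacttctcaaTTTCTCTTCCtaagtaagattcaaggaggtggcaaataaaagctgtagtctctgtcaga
Among the 10 member windows TGANTCA was in 2 (the other is Zbtb46) and the composite in 1, against 7.81% and 2.72% of all windows. The core of interferon response elements, read as GAAA, 2 bases of any kind and GAAA, was in 0 and in 3.44% of all windows. Both strands were searched, and matches of different motifs did not overlap in these windows.

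Between Day1 and 6h, 0 of 9 tested members passed in limma, with 4 at an unadjusted p under 0.05 (Flt3, Clec9a, Siglech and Tcf4), and 0 in edgeR and in DESeq2. Of all tested genes 0.169% were called in limma on the deposited scale. The difference was positive for 8 of the 9, with Batf3 negative. The members' median was 1.48, beside 0.52 over all genes. Scaled to all reads, Flt3, Siglech and Tcf4 passed (limma adjusted p = 0.0362, 0.04 and 0.0448). On that scale 1183 of 11211 tested genes were called, 1181 of them higher, and the median of all genes was 1.59. In 0 members were the groups free of overlap, whereas 5.52% of all tested genes were higher and 0.883% lower with no overlap.

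Between Day7 and Day1, 8 of the 9 differences were negative and the members' median was -1.74, beside -0.48 over all genes. Between Day7 and 6h, 0 of 9 passed in limma, with 1 (Xcr1) at an unadjusted p under 0.05, 0 in edgeR and 1 (Siglech, lower) in DESeq2. Of all tested genes limma called 0.883%, 0.607% higher and 0.277% lower. DESeq2 called far more, 1075 of 11211 genes, of which 279 were higher and 796 lower. In 0 members were these groups free of overlap, against 3.45% of tested genes higher and 2.38% lower. The members' median was -0.26, beside 0.13 over all genes. Over the 3 times together, limma's F test called 0 of 9 members, with 2 at an unadjusted p under 0.05, and 2.55% of all tested genes. By that test Siglech had adjusted p = 0.0639 and Tcf4 adjusted p = 0.103. edgeR and DESeq2 also called 0 members over the 3 times.

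Per kilobase of gene length the order of the members differed between times. At 6h mean values per kilobase were highest for Irf8 (15.03), Siglech (12.7) and Batf3 (10.7). At Day1 the order was Siglech (27.6), Irf8 (19.7), Clec9a (9.22) and Tcf4 (4.51). At Day7 it was Xcr1 (2.93), Flt3 (2.79, from replicate 4), Irf8 (2.14) and Batf3 (2.03). Neighbours in these orders differed by less than the larger of their SDs.

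The share of each gene among the members' reads per kilobase does not depend on how libraries were scaled. Siglech took 0.866%, 0.563%, 0% and 13.5% in Day7 replicates 1 to 4, against 42.03%, 31.9%, 38.0% and 39.2% in Day1 replicates 1 to 4. It was the leading gene in all 4 Day1 libraries and in 6h replicate 3. Xcr1 took 27.5%, 25.02%, 47.2% and 15.6% at Day7, against 0.146% to 2.66% at Day1. The Day7 replicate 3 shares rest on 6 reads. Irf8 led in 6h replicates 1 and 2, and Batf3 in 6h replicate 4 with 55.5%.

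**Figure D4:**
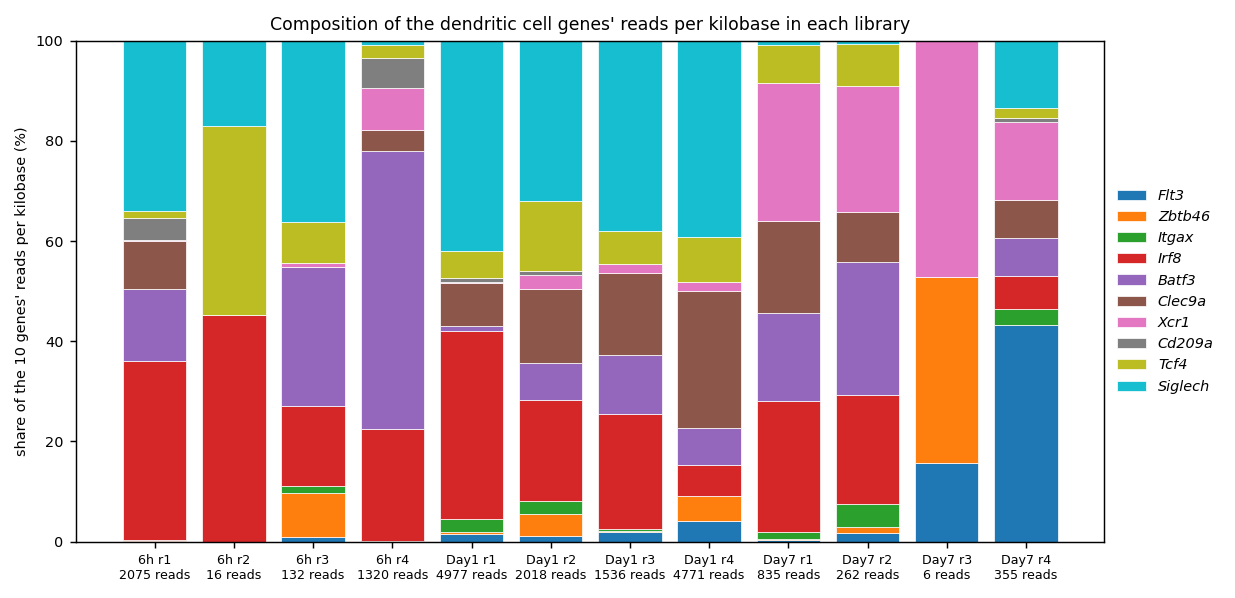
Share (%) of each of the 10 genes in their summed reads per kilobase (y axis), with 1 bar per library and its read count for the 10 genes below (x axis). Siglech fills 31.9% to 42.03% of the 4 Day1 bars and at most 13.5% of the Day7 bars.

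Other genes of the same cell types were read from lists of companions. Of 14 tested companions of plasmacytoid cells 0 changed in any comparison in limma. edgeR also called 0 of them in any comparison, and DESeq2 called 1 for Day1 against 6h (Lair1) and 1 for Day7 against 6h (Ccr9). At Day7 against Day1, 3 of these companions had an unadjusted p under 0.05 in limma. DESeq2 called 2 there (Ccr9 and Lair1), beside 1776 of all 11211 tested genes. Of these differences 6 were positive and 8 negative (median -0.22, beside -0.48 over all genes). The most abundant was Irf7, the interferon regulator, at 683 ± 630 at Day7 and 83.7 ± 47.5 at Day1, followed by Bst2, tetherin, at 52.0 ± 40.8 and 62.3 ± 17.2 (SD, n = 4 each). Neither passed (limma adjusted p = 0.0885 and 0.62). Companions lower in every Day7 library than in any Day1 library were Ccr9 and Lair1, named after their values were seen. These 2 of 14 stand beside 14.5% of all tested genes that were lower with no overlap, so the share is that of the background. Ccr9, a homing receptor, had 0 reads in all Day7 libraries, against 25.95, 2.45, 6.14 and 2.18 at Day1. With reads pooled, Day7 Ccr9 was at least 43.8-fold lower (floor of 3 reads over the group), and it did not pass in limma (adjusted p = 0.0699). Lair1, an inhibitory collagen receptor, was at 2.34, 0, 0 and 1.66 at Day7, against 44.2, 3.99, 6.90 and 4.13 at Day1 (limma adjusted p = 0.0509).

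Of 8 tested companions of cross-presenting cells 1 changed in limma, Gcet2 (now Gcsam), which is also known from germinal centre B cells. It rose at Day7, to 12.1, 18.6, 6.79 and 14.97, against 1.24, 1.04, 0.303 and 0 at Day1 and 0 reads at 6h. Its log2 differences were 3.10 against Day1 and 3.74 against 6h (SE 0.68 for both, limma adjusted p = 0.0211 and 0.0124), of which the value against 6h depends on the pseudocount. With reads pooled, Day7 Gcet2 was at least 130-fold higher than at 6h, where 3 reads over the group were taken as the floor. The call against Day1 was lost in edgeR (adjusted p = 0.121), in a fit that included Y-linked reads (limma adjusted p = 0.143) and without Day1 replicate 2, 3 or 4 or Day7 replicate 2 (limma adjusted p = 0.0573 to 0.0828). The call against 6h was lost without 6h replicate 3 (limma adjusted p = 0.077). DESeq2 called 1 of these companions at Day7 against Day1 (Gcet2) and 4 at Day7 against 6h (Gcet2, Id2, Naaa and Nfil3), and edgeR called 0 and 1 (Gcet2). Over all 11211 tested genes DESeq2 called 1776 and 1075 in these comparisons, edgeR 2 and 93, and limma 648 and 99. The abundant Id2, an inhibitor of E proteins, was at 14.5 ± 10.3 at Day7 and 48.1 ± 24.6 at Day1, and Ppt1, a lysosomal enzyme, at 43.6 ± 40.7 and 7.68 ± 5.64 (SD, n = 4 each; limma adjusted p = 0.148 and 0.0818).

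Of 7 tested companions of the other conventional type (cDC2) 1 changed in limma. Klf4, a factor also found in stroma, monocytes and among early response genes, fell at Day7, to 1.31, 0.383, 0 and 1.33, against 28.7, 81.2, 73.7 and 20.4 at Day1 (log2 fold change -4.75, SE 0.92, limma adjusted p = 0.0135). Mesenchymal sums in the same groups are given with Tcf4, and their part in Klf4 was not tested. The Klf4 call was lost in edgeR (adjusted p = 0.0804), without Day1 replicate 2 or 3 (limma adjusted p = 0.059 and 0.0685) and in the fit that included Y-linked reads, where the difference was -2.99 (limma adjusted p = 0.186). DESeq2 called 2 of these companions in each comparison, namely Clec10a and Csf2rb for Day1 against 6h, Clec10a and Klf4 for Day7 against Day1, and Csf2rb and Klf4 for Day7 against 6h. edgeR called 1, Klf4, for Day7 against 6h and 0 in the other comparisons. For Day1 against 6h, Day7 against Day1 and Day7 against 6h, DESeq2 called 197, 1776 and 1075 of all 11211 tested genes. In the same order edgeR called 14, 2 and 93. At Day7 against Day1, where Klf4 passed, limma called 648. At Day7 against Day1 all 7 differences were negative (median -1.61, beside -0.48 over all genes). Dpp4 was at 5.29 ± 8.24 at Day7 and 32.3 ± 23.2 at Day1 (SD, n = 4 each; limma adjusted p = 0.0731).

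Of 7 tested genes of mature, migrating dendritic cells and 9 tested genes of MHC class II presentation 0 changed in any comparison in limma. edgeR called 0 of the mature cell genes in any comparison, and DESeq2 called 1, Socs2, for Day7 against 6h. At Day7 against Day1, 3 of the mature cell genes had an unadjusted p under 0.05 in limma, and DESeq2 called 1, again Socs2. For MHC class II none of these tools called a gene in that comparison, and 0 had an unadjusted p under 0.05. Ccr7, which guides cells to lymph nodes, had 112 in 6h replicate 1 and 0 in the other 6h libraries, with 0.0758 to 17.7 at Day1 and 0.617 to 16.8 at Day7. Cacnb3 averaged 3.99 ± 4.10 at Day7 and 17.4 ± 9.12 at Day1 (SD, n = 4 each). Cd74, the invariant chain, averaged 600 ± 499 at Day7 and 230 ± 55.7 at Day1, and H2-Ab1 averaged 248 ± 202 and 127 ± 26.8 (SD, n = 4 each). Their log2 differences were 0.66 and 0.40 (limma adjusted p = 0.739 and 0.849), and turned to -1.48 and -1.72 when scaled to all reads.

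Library 6h replicate 1, which had high Siglech, Irf8 and Clec9a, also had the highest sums of T cell markers (954, against 5.79 to 27.5 in the other 6h libraries), natural killer cell markers (237, against 5.07 to 15.9) and MHC class II genes (8213, against 28.8 to 895). Day1 replicate 1 had the highest sums of B cell, T cell and natural killer cell markers of its group (206, 73.3 and 42.6). The monocyte and macrophage sum was 44.4 in Day1 replicate 1, the lowest of its group, where Irf8 and Itgax were highest. In 6h replicate 1, where Irf8 was the highest of its group and Itgax had 0 reads, that sum was 135, the highest of the 6h group. The part of these cells in the members' values was not tested.

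**Figure D5:**
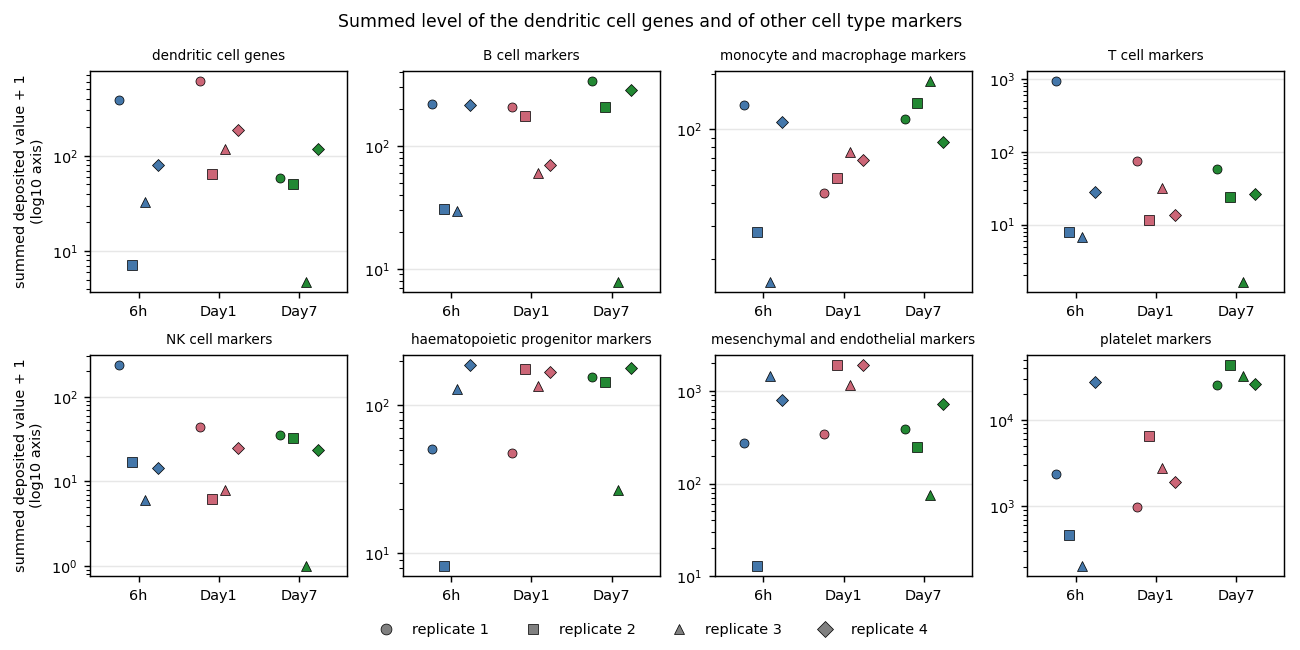
Summed deposited value + 1 (log10 axis) of the 10 dendritic cell genes and of 7 lists of other cell type markers at 6h, Day1 and Day7, with 1 symbol per library shaped by replicate number. The y axes differ between panels. Platelet sums at Day7 (25517 to 43864) lie above all Day1 sums (up to 6531). Monocyte sums at Day7 (84.8 to 182) also lie above those at Day1 (44.4 to 74.2), although 7 of 10 tested monocyte markers had a negative log2 difference.

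Genes with profiles most like each tested member were found by the mean absolute difference between centred log2(value + 1) profiles over the 12 libraries. For Irf8 they were Cyth4 (0.43) and Pld4 (0.59), beside Irf8's own mean deviation of 1.65. For Tcf4 they were Ifi203 (0.49) and Mndal (0.56), with an own deviation of 1.25. For Clec9a they were Dennd1c (0.30) and Ccdc88b (0.31), with an own deviation of 1.33. For Siglech they were 2810442I21Rik and Adam11 (0.87 for both), with an own deviation of 2.27. For Xcr1 they were Smtn (0.32) and Tsc22d4 (0.39), for Flt3 2210404J11Rik (0.61) and Hist1h4d (0.67), and for Zbtb46 Mybpc2 and 3110021A11Rik (0.53 for both). For Itgax they were Mob3b (0.40) and Kdm2b (0.47), and for Batf3 BC017643 (0.47) and Cars2 (0.48).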

How the data were processed

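Blood enriched on the iChip was sequenced as total RNA, 12 libraries in 3 times of 4, grouped and numbered by their titles. STAR 2.7.10, HTSeq 2.0.1 and mm9 appear in the submitters' processing notes. For the annotation and the scaling step, the source is not given in the sources used here. Each deposited value is a scaled signal per gene that the authors call CPM, although Day1 replicate 2, for example, sums to 351981. Whole reads were recovered from its steps, with 100% of values whole within 0.001 reads. The deposited gene length gave values per kilobase.

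The main test was limma 3.58.1 (R 4.3.3) with trend on log2(value + 1) over all 12 libraries. It covered 11211 genes that reached a value of 1 in 4 or more libraries, with Benjamini-Hochberg adjustment over all of them and a threshold of 0.05. Folds on this scale understate low genes. Alternatives were pseudocounts, filters, scalings, leaving out single libraries, a block for replicate number, and edgeR 4.0.16 and DESeq2 1.42.0 on the recovered counts behind the deposited values. After the data had been seen, a term for Y-linked reads was added, and a fit that omits both libraries in which the fewest genes were found. Tests on simulated data preceded the fits.

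The members and lists were chosen with earlier results of these data known. All members are named, with up to 4 changed and the 2 most abundant tested genes of each companion list, and the 2 genes nearest in profile. Listed genes were matched by symbol or synonym, from the row with more reads where a symbol had 2. Promoter windows came from RefSeq, GRCm38.p6, another build than that of the files, so positions belong to those sequences only. Intervals and floors cover counting error only.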

Additional observations from a re-analysis of the deposited data

Results flagged for a closer look

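In 30 groups (10 genes at 3 times) the highest or lowest library stood apart from the other 3 in 6 cases, by a gap past Dixon's critical value on the log2(value + 1) scale. Chance flags about 1 in 20 groups of normal values, a rate that does not hold where libraries tie at 0, as for Cd209a. Flt3 was at 72.2 in Day7 replicate 4, against 0.344 to 1.53 in the others, and Siglech was at 8.65 in the same library, against 0 to 0.344. Xcr1 was at 13.8 in 6h replicate 4, against 0 to 0.56, and at 1.23 in Day7 replicate 3, against 14.7 to 18.9. Cd209a was at 2.22 in Day1 replicate 1, against 0 to 0.188, and at 0.333 (1 read) in Day7 replicate 4, against 0.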

How the results depend on the processing

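As reported, 19, 648 and 99 genes changed for Day1 against 6h, Day7 against Day1 and Day7 against 6h, and 286 over the 3 times, with 0, 1, 0 and 0 of the dendritic cell genes. With a pseudocount of 0.25 the count over the 3 times was 154. With a pseudocount of 4, 0 genes changed for Day1 against 6h (limma, 1182 at an unadjusted p under 0.05), 5 for Day7 against 6h and 104 over the 3 times. With no filter the counts were 0 (limma, 1768 at an unadjusted p under 0.05), 57, 13 and 16, and Siglech was not called (adjusted p = 0.127), leaving 0 members (limma, 2 at an unadjusted p under 0.05). With a mean of at least 10, 7 genes changed for Day1 against 6h. At Day7 against Day1 that filter gave 2 of 3 tested members, beside 546 of 4383 tested genes. Median-of-ratios scaling and the replicate block also gave 2 members in that comparison, Siglech and Tcf4, of 9 tested. Beside them stood 781 and 571 of all 11211 tested genes. Recomputed TMM scaling left every count as reported.

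Scaled to all reads, 1183, 3957, 0 (limma, 968 at an unadjusted p under 0.05) and 2946 genes changed, with 3 members for Day1 against 6h, 5 for Day7 against Day1 and 5 over the 3 times. Scaled to reads outside haemoglobin these were 425, 3790, 32 and 2718, with 5 members for Day7 against Day1 and 3 over the 3 times. edgeR called 2 genes and 0 members for Day7 against Day1 (3 members at an unadjusted p under 0.05) and 17 genes over the 3 times. DESeq2 called 197, 1776, 1075 and 876 genes, with 2 members for Day7 against Day1 and 1 for Day7 against 6h. The replicate block gave 45 genes for Day1 against 6h, 156 for Day7 against 6h and 1 member over the 3 times. Same-numbered libraries deviated together with r of -0.231 to 0.125 across genes, so the numbers were not taken as pairs. A term for Y-linked reads left 2, 0 (limma, 1774 at an unadjusted p under 0.05) and 27 genes for Day1 against 6h, Day7 against Day1 and the 3 times, with 0 members for Day7 against Day1. Without the 2 libraries with the fewest genes the counts were 4, 410 and 186, with 1 member over the 3 times.

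Leaving out libraries singly gave 2 to 56, 3 to 1187, 2 to 693 and 41 to 961 genes, with 0, 0 to 2, 0 to 1 and 0 to 1 members. Some differences, none of them called in limma as reported, changed sign. For Clec9a at Day7 against 6h the value was 0.30 with a pseudocount of 0.25 and 1.36 without the 2 libraries with the fewest genes. Xcr1 at Day1 against 6h was -0.57 in edgeR and -0.33 in DESeq2. Flt3 at Day7 against Day1 was 0.98 in edgeR and 0.20 in DESeq2. Batf3 at Day7 against Day1 was 0.12 with the Y-linked term, where Zbtb46 at Day7 against 6h was 0.014. Without the 2 libraries with the fewest genes Batf3 (0.065) and Itgax (0.036) at Day7 against Day1, and Irf8 (0.50) and Tcf4 (0.42) at Day7 against 6h, were above 0. With libraries left out singly the ranges that crossed 0 were -0.56 to 0.89 for Clec9a, -0.60 to 0.37 for Zbtb46 and -1.33 to 0.0070 for Tcf4 at Day7 against 6h, -0.027 to 2.08 for Irf8 at Day1 against 6h, and -0.89 to 0.55 for Itgax and -0.54 to 0.065 for Batf3 at Day7 against Day1. Among companions at Day7 against Day1, median-of-ratios scaling gave -0.086 for Ccr7 and -0.017 for H2-Ab1. Scaling to all reads gave -1.0 for Ccr7, -1.48 for Cd74 and -1.72 for H2-Ab1, and scaling to reads outside haemoglobin gave -0.88, -1.18 and -1.42. Ccr7 was at -0.12 in DESeq2 and at -1.37 with the Y-linked term. With libraries left out singly Ccr7 ranged from -0.53 to 0.84 and H2-Ab1 from -0.14 to 1.23. The cause of these shifts was not tested. Low read counts limit the members, which had 6 reads in all in Day7 replicate 3, a library of 9096780 reads.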
